A study of Mus musculus with 4 samples.

Results

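The genes described here are 10 enzymes that detoxify superoxide and peroxides in mouse cells, 10 of the 53715 genes counted: the glutathione peroxidases Gpx1 and Gpx4, the peroxiredoxins Prdx1, Prdx2, Prdx3, Prdx5 and Prdx6, catalase (Cat) and the superoxide dismutases Sod1 and Sod2. They were chosen by enzyme function and selected on their measured counts in these same 4 libraries, so their differences between the groups are given as a description, without a test. RNA was sequenced from cells labelled as primordial germ cells (PGC), the embryonic precursors of eggs and sperm, of C57BL/6 mouse embryos at E12.5. There were 2 libraries labelled WT (wild type) and 2 labelled Rif1_KO (Rif1 knockout), each from 1000 cells taken by magnetic sorting (MACS) and made by a modified Smart-seq2 protocol with Tn5, which amplifies full-length cDNA. Rif1 encodes a protein of replication timing and double-strand break repair. The labels name neither the cells that carried the deletion, nor the sort's marker, nor the embryos behind each library, so every test below measures the spread between these libraries only.

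Superoxide leaks from mitochondrial respiration and from oxidases, and superoxide dismutases turn it into hydrogen peroxide, in the cytosol by SOD1 and in the mitochondrial matrix by SOD2. Catalase breaks hydrogen peroxide down directly, glutathione peroxidases reduce it with glutathione, and most peroxiredoxins reduce it with thioredoxin, both systems drawing on NADPH. Sperm development depends on GPX4, which reduces lipid peroxides in membranes, while red blood cells carry very large amounts of catalase, GPX1 and PRDX2, so these enzymes are also red cell proteins.

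The glutathione peroxidases and the peroxiredoxins act through different residues, and the codons of those residues are shown because they separate the 2 families whose counts are compared below. Each stretch is read from the coding strand of a GENCODE transcript, 5′ to 3′, with the active-site codon in capitals; TGA is the codon read as selenocysteine, and TGT or TGC encodes the cysteine that attacks the peroxide.
Gpx1: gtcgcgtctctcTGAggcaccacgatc
Gpx4: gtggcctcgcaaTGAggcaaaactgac
Prdx1: tttacttttgtgTGTcccacggagatc
Prdx2: ttcacttttgttTGCcccacggagatc
Prdx3: ttcacatttgtgTGTcctacagaaatt
Prdx5: tttacacctggcTGTtctaagacccac
Prdx6: tttaccccagtgTGCaccacagaactt
The capital codon is codon 47 of Gpx1, 73 of Gpx4, 52 of Prdx1, 51 of Prdx2, 109 of Prdx3, 96 of Prdx5 and 47 of Prdx6. Over the aligned bases of their coding sequences, gaps left out, Prdx1 and Prdx2 were 69.9% identical and Gpx1 and Gpx4 60.8%. The longest run shared by the whole transcripts was 14 bases for Prdx1 and Prdx2 and 10 bases for Gpx1 and Gpx4. No stretch of 50 bases of coding sequence was therefore shared within either pair.

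The 4 libraries held 11724630 to 14421298 counts assigned to genes, and 15466 genes had enough counts to be tested. The targeted gene went against the labels: Rif1 was at 43.7 and 4.73 CPM (counts per 1e6 counts of a library scaled by TMM, a normalization that trims extreme genes) in the WT-labelled pair, replicate 1 then 2, and at 86.2 and 63.9 in the Rif1_KO-labelled pair. A count over the whole gene can include transcripts that still arise from a deleted allele, and here it went opposite to the labels, so the groups are named below by label only. Markers of germ cells were low in 3 of the libraries. The 14 listed markers summed to 51.6 and 742 CPM in the WT-labelled pair and to 72.5 and 36.1 in the Rif1_KO-labelled pair (Sox2 at 0 counts in WT replicate 1, Sox2 and Mael in Rif1_KO replicate 2). Ddx4, a germ cell RNA helicase, was at 0.645 and 59.2 CPM in the WT-labelled pair and at 1.05 and 0.530 in the Rif1_KO-labelled pair, and Dazl at 13.0 and 196 against 2.03 and 4.08. Red cell transcripts separated the groups. Haemoglobin genes took 11.8% and 8.92% of the counts of the WT-labelled libraries and 1.08% and 0.555% of those labelled Rif1_KO. All 22 tested genes of a red cell marker list had fitted log2 fold changes below 0, and their summed level was 139336 and 113953 CPM against 9938 and 4282, with Klf1 at 0 counts in Rif1_KO replicate 2. Stromal markers summed to 543 and 450 CPM against 1654 and 1377 (Lum at 0 in WT replicate 2). The sums of supporting cell markers (711 and 813 against 881 and 745) and of endothelial markers (272 and 116 against 89.7 and 184) overlapped between the groups. Leukocyte markers summed to 82.9 and 69.3 against 8.06 and 4.08, most of it Epx, an eosinophil peroxidase, in the WT-labelled pair (78.9 and 48.4 against 0.452 and 0.159). Tyrobp was at 0 counts in both WT-labelled libraries, Cd68 in WT replicate 1, Fcer1g in WT replicate 2, and C1qa and Lyz2 in replicate 2 of both groups. In bulk RNA, fewer cells of a type and less RNA per cell cannot be told apart.

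The enzymes that reduce hydrogen peroxide were unevenly placed between the groups. Gpx1, Prdx2 and Cat were lower in both Rif1_KO-labelled libraries than in either WT-labelled library, and the other 7 overlapped between the groups. By edgeR's quasi-likelihood test with Benjamini-Hochberg adjustment over all genes, 0 of the 10 were called, where 0.0129% of all tested genes were called lower (Hba-a1 and Hba-a2, the alpha-globins) and 0% higher. At an unadjusted p under 0.05, 3 of the 10 were lower and 0 higher, against 3.05% and 5.35% of all genes. DESeq2 called 0 of the 10, and 1.35% of all genes lower and 2.31% higher. The ranges of the groups did not overlap for 3 of the 10, all lower, where 18.4% of all genes were lower and 21.0% higher in this way. Because the genes were selected on these counts, nothing is read from their own share. The median fitted log2 fold change of the 10 was −0.29, with 8 below 0 and 2 above, and that of all tested genes was −0.11.

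**Figure D1:**
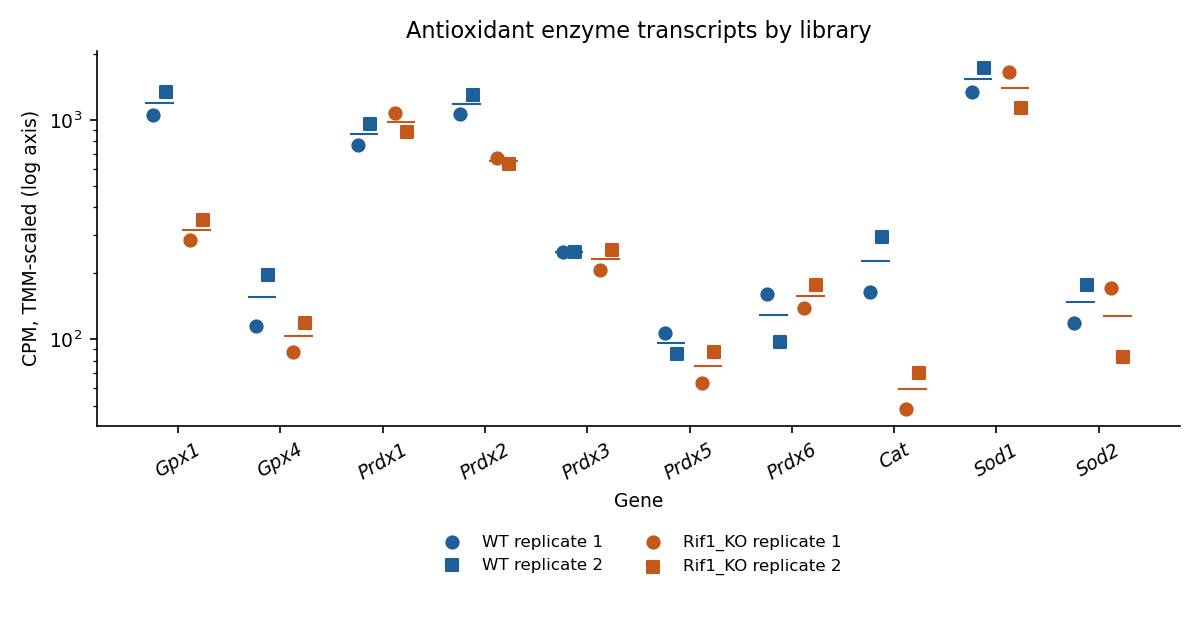
CPM (TMM-scaled, log axis) of each of the 10 genes in the 4 libraries, with circles for replicate 1, squares for replicate 2 and a line at each group's mean. The points of Gpx1, Prdx2 and Cat separate by label (Cat at 165 and 291 against 48.4 and 70.2), and those of the other 7 genes overlap.

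Gpx1 encodes the abundant cytosolic and mitochondrial glutathione peroxidase. Its gene lies on chromosome 9 (mm10, 108338903 to 108340343, plus strand). Gpx1 had 11470 and 12433 counts in the WT-labelled libraries and 3748 and 6586 in those labelled Rif1_KO. On the CPM scale it was at 1057 and 1336 against 282 and 349, or 1197 ± 198 against 316 ± 47.0 (SD, n = 2 each). The lowest WT-labelled library was thus well above the highest Rif1_KO-labelled one, and the fitted log2 fold change was −1.92 (SE 0.29). None of its transcripts' 50-base windows (0%) occurred in a transcript of another gene.

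Gpx4, the phospholipid hydroperoxide glutathione peroxidase that restrains ferroptosis, is on chromosome 10 (80047166 to 80056439, plus strand). Its level was 116 and 196 CPM in the WT-labelled pair and 87.4 and 119 in the Rif1_KO-labelled pair. These ranges overlapped, with a fitted log2 fold change of −0.59 (SE 0.44). The count of Gpx4 is less certain than that of Gpx1, since 68.9% of its transcript windows also occur in other genes, foremost the processed pseudogene Gpx4-ps2, which was itself assigned 300 and 326 counts against 231 and 462. Within single libraries, where no scaling enters, there were 9.15 and 6.83 Gpx1 counts for each Gpx4 count in the WT-labelled pair and 3.23 and 2.93 in the Rif1_KO-labelled pair, ranges that did not overlap.

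Prdx2 encodes a typical 2-Cys peroxiredoxin of the cytosol that is one of the most abundant proteins of red cells after haemoglobin. The gene is on chromosome 8 (84969587 to 84974834, plus strand). Its level was 1066 and 1296 CPM in the WT-labelled libraries and 673 and 629 in the Rif1_KO-labelled libraries, or 1181 ± 163 against 651 ± 31.1 (SD, n = 2 each). Both Rif1_KO-labelled values lay below both WT-labelled values, and the fitted log2 fold change was −0.86 (SE 0.26). Prdx2 overlaps Junb and Rnaseh2a on the opposite strand. Smart-seq2 does not mark strand, so reads in the overlaps cannot be told apart. The counts of these neighbours came to 18.0% to 26.2% of the Prdx2 count. The pseudogene Tdpx-ps1, which shares windows with Prdx2, was assigned 31 and 52 counts in the WT-labelled pair and 10 and 12 in the Rif1_KO-labelled pair.

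Prdx1, its closest relative and also cytosolic, is on chromosome 4 (116685544 to 116700822, plus strand). Prdx1 was at 765 and 955 CPM in the WT-labelled pair and at 1074 and 877 in the Rif1_KO-labelled pair. The groups overlapped, and the fitted log2 fold change was 0.18 (SE 0.27). The order of the cytosolic pair was thereby exchanged. Each WT-labelled library held more Prdx2 than Prdx1 counts (ratios 1.39 and 1.36), and each Rif1_KO-labelled library fewer (0.626 and 0.717). If every count given to Junb or Rnaseh2a were taken off Prdx2, the ratios would be 1.12 and 1.11 against 0.502 and 0.528. How reads in the overlaps were assigned was not tested, so this subtraction does not bound their effect on the order. The merged exons of Prdx1 and Prdx2 are of nearly equal length, so the exchange also held per kilobase.

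Promoter sequence is shown for Prdx2 and Prdx1, whose ratio exchanged order, and for Cat. It comes from RefSeq (GRCm38.p6), from 250 bases before the RefSeq start to the base before the gene start in the counted annotation, with motif matches in capitals. The motifs searched on both strands over the whole 250 bases were CACACCC, a KLF1-type box, the GATA motif, and the antioxidant response element in the forms TGACNNNGC and TGAGNNNGC. Prdx2 is shown for chr8:84969372-84969586 (plus strand), Prdx1 for chr4:116685349-116685543 (plus strand) and Cat for chr2:103485161-103485403 (minus strand).
Prdx2: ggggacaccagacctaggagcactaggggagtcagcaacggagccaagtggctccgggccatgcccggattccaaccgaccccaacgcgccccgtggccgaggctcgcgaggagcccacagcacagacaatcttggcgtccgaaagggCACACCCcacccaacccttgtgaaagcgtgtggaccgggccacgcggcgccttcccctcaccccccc
Prdx1: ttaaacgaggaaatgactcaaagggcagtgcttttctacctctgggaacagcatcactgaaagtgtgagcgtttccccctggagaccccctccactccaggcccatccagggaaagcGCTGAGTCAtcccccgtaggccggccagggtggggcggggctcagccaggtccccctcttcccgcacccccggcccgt
Cat: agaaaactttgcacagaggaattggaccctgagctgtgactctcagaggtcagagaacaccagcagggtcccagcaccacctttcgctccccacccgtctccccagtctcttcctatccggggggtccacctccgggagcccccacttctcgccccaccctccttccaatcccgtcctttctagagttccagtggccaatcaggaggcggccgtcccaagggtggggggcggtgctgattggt
Prdx2 held 1 CACACCC match, 102 bases before the RefSeq start, and Prdx1 held 1 antioxidant response element match, 133 bases before it, read on the reverse strand. Over all 32851 promoters of this length, 6.93% held CACACCC, 26.5% the GATA motif and 23.0% the antioxidant response element. Among the other members with an entry (9 of 10 had one, Prdx6 not), Prdx3 held 2 CACACCC matches and Sod1 held 1 antioxidant response element match. Gpx4 held GATA matches in 3 of its 4 promoters, all 3 inside the counted gene and in part overlapping, so a site can be matched again. Its promoter before the counted gene start held none. Gpx1, Prdx5, Cat and Sod2 held none of the motifs. A match describes letters only and is neither a binding site nor a cause of a level.

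Prdx3 and Prdx5 are the mitochondrial peroxiredoxins, PRDX3 in the matrix and PRDX5 also in peroxisomes and cytosol. Prdx3 (chromosome 19, 60864051 to 60874556, minus strand) was at 251 and 251 CPM in the WT-labelled pair and at 207 and 256 in the Rif1_KO-labelled pair. Its log2 fold change was −0.12 (SE 0.31), and the WT-labelled values lay inside the range of the others. Prdx5 (chromosome 19, 6906697 to 6910106, minus strand) was at 107 and 85.7 CPM against 63.2 and 87.9, with a log2 fold change of −0.35 (SE 0.47). Prdx5 overlaps Trmt112 on the opposite strand. Trmt112 counts came to 99.7% to 223% of those of Prdx5, and 29.7% of the Prdx5 transcript windows also occur in Trmt112. How reads in the overlap were assigned was not tested, so the part of that neighbour in the Prdx5 level is not known.

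Prdx6, a 1-Cys peroxiredoxin that also repairs oxidised phospholipids (chromosome 1, 161240112 to 161251219, minus strand), was at 161 and 97.1 CPM in the WT-labelled pair and at 139 and 176 in the Rif1_KO-labelled pair. The ranges overlapped, and the log2 fold change of 0.29 (SE 0.42) was the highest of the 10. It became −0.03 when WT replicate 2, the lowest library, was left out. Prdx6 counts per Prdx1 count were 0.210 and 0.102 against 0.129 and 0.201, which also overlapped.

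Catalase, the peroxisomal haem enzyme, is encoded by Cat on chromosome 2 (103453849 to 103485160, minus strand). Cat was at 165 and 291 CPM in the WT-labelled libraries and at 48.4 and 70.2 in those labelled Rif1_KO, or 228 ± 89.5 against 59.3 ± 15.4 (SD, n = 2 each). Its lowest WT-labelled value was above its highest Rif1_KO-labelled value, and the log2 fold change was −1.94 (SE 0.46). As for Gpx1, 0% of its transcript windows occurred in another gene. Cat and Gpx1 kept a similar ratio to each other in all 4 libraries: there were 6.42 and 4.59 Gpx1 counts for each Cat count in the WT-labelled pair and 5.84 and 4.97 in the Rif1_KO-labelled pair.

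The superoxide dismutases overlapped between the groups. Sod1, the cytosolic copper-zinc enzyme (chromosome 16, 90220742 to 90226322, plus strand), was at 1345 and 1725 CPM against 1655 and 1133, with a log2 fold change of −0.14 (SE 0.29). Sod2, the manganese enzyme of the mitochondrial matrix (chromosome 17, 13007839 to 13018119, plus strand), was at 119 and 177 CPM against 172 and 83.1, with a log2 fold change of −0.22 (SE 0.48). In both genes Rif1_KO replicate 1 lay between the WT-labelled values and Rif1_KO replicate 2 below them. Sod1 counts per Sod2 count were 11.3 and 9.76 against 9.65 and 13.6, so the cytosolic to mitochondrial balance overlapped as well. Against Sod1 as the partner, Cat stood at 0.122 and 0.169 counts per Sod1 count in the WT-labelled pair and at 0.0292 and 0.0620 in the Rif1_KO-labelled pair, and Gpx1 at 0.786 and 0.775 against 0.171 and 0.308. Neither of these pairs of ranges overlapped. The pseudogene Gm8566 shares 23.1% of the Sod1 windows and was assigned 285 and 327 counts in the WT-labelled pair and 583 and 456 in the Rif1_KO-labelled pair, where Sod1 had 14602 and 16048 against 21970 and 21384.

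**Figure D2:**
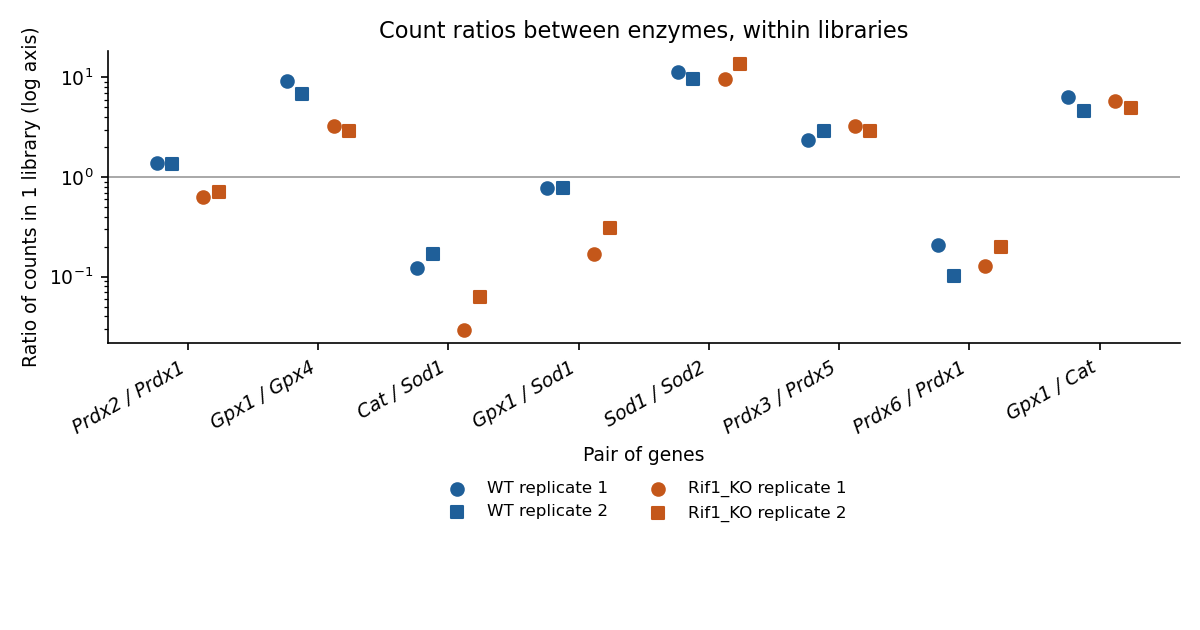
Ratio of the counts of 2 genes within each library (log axis, no scaling between libraries), circles for replicate 1 and squares for replicate 2. Prdx2 to Prdx1 lies above 1 in both WT-labelled libraries (1.39 and 1.36) and below 1 in both labelled Rif1_KO (0.626 and 0.717), whereas Gpx1 to Cat overlaps (4.59 to 6.42 against 4.97 to 5.84).

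Compared per kilobase of merged exons, Sod1 stood first in every library, at 2082 and 2670 CPM per kilobase in the WT-labelled pair and 2563 and 1753 in the Rif1_KO-labelled pair. In the WT-labelled pair the next places went to Gpx1 (733 and 927), Prdx2 (349 and 425) and Prdx1 (251 and 314), whose ranges did not overlap one another. In the Rif1_KO-labelled pair Prdx1 came second (353 and 288), above Gpx1 (196 and 242) and Prdx2 (221 and 206), which could not be ordered against each other. Prdx3 held the next place in all 4 libraries (170 and 170 against 140 and 173) and Gpx4 the one after it (67.0 and 113 against 50.7 and 69.0). Cat followed in the WT-labelled pair (63.0 and 111, overlapping Gpx4) and stood at rank 10 and rank 9 of the 10 in the Rif1_KO-labelled pair (18.5 and 26.9). The lowest places were shared by Prdx5, Prdx6 and Sod2, at 20.2 to 50.2 CPM per kilobase over all libraries. Prdx5 lay above Prdx6 in the WT-labelled pair and overlapped it in the other, and Sod2 overlapped both in each group. The merged exon length counts every annotated isoform, which lowers the value of a gene with long rare exons. The places of Gpx4, with 68.9% of its transcript windows shared with other genes, and of Prdx5, which overlaps Trmt112, are less certain. Reads were counted at a minimum mapping quality of 30, and its effect on genes with shared windows was not tested.

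Red cell markers moved in the same direction as the 3 separated genes, Hba-a1 and Alas2 by more. Over the 22 tested markers the median log2 fold change was −4.04. Gata1, Sptb and Rhag moved less than the 3 genes, at −0.39, −0.42 and −0.81, with overlapping ranges. Hba-a1 was at 54994 and 52153 CPM in the WT-labelled pair and 3872 and 2598 in the Rif1_KO-labelled pair, a 16.6-fold difference of means, and Alas2, the first enzyme of red cell haem synthesis, at 263 and 246 against 12.9 and 20.7. The means of Gpx1, Cat and Prdx2 differed 3.79-fold, 3.84-fold and 1.82-fold in the same direction. Set against Hba-a1 in the same library, Prdx2 stood higher in the Rif1_KO-labelled pair (0.174 and 0.242 counts per Hba-a1 count) than in the WT-labelled pair (0.0194 and 0.0249). So did Gpx1 (0.0729 and 0.134, WT-labelled 0.0192 and 0.0256) and Cat (0.0125 and 0.0270, WT-labelled 0.00299 and 0.00558). These ratios follow from the larger difference of Hba-a1 and add nothing to it. The part of red cell RNA in the levels of Gpx1, Prdx2 and Cat was not tested. Summed over the 10 genes, the share of all counts was 0.438% and 0.509% in the WT-labelled libraries and 0.484% and 0.495% in the others, which overlapped. On the TMM scale the summed CPM was 5152 and 6410 against 4400 and 3780, which did not overlap. Whether the sums overlapped thus depended on the scaling.

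The scaling of the libraries moved every fold change together. With library totals in place of TMM factors the median of all tested genes went from −0.11 to 0.43. The log2 fold changes of Gpx1, Cat and Prdx2 then became −1.35, −1.35 and −0.31, still below the median of all genes. Under the same totals Prdx1 was at 0.73, Prdx6 at 0.84, Sod1 at 0.39, Prdx3 at 0.45, Sod2 at 0.30 and Prdx5 at 0.21, so Sod1, Sod2, Prdx3 and Prdx5 changed sign, and Gpx4 was at −0.01. Without any 1 library, Gpx1 stayed within −2.03 to −1.69, Cat within −2.25 to −1.47 and Prdx2 within −0.95 to −0.70.

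**Figure D3:**
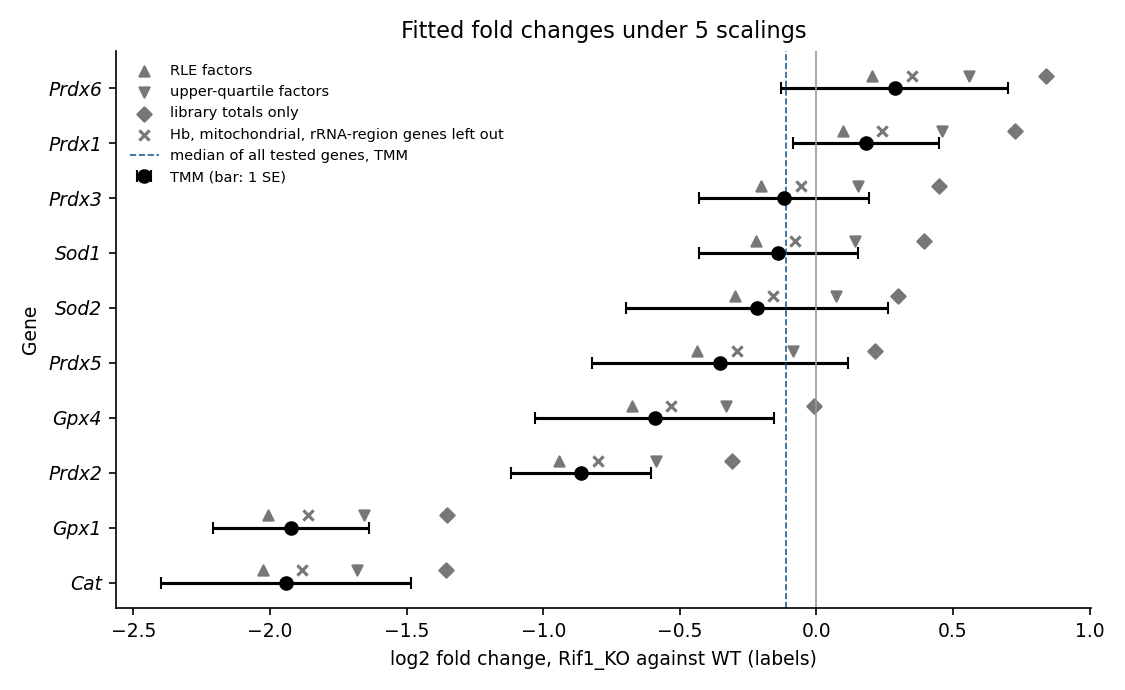
Fitted log2 fold change of the Rif1_KO-labelled against the WT-labelled libraries for each gene (black point, TMM; bar, 1 SE), with grey symbols for 4 other scalings and a dashed line at the median of all tested genes under TMM, −0.11. Gpx1 (−1.92), Cat (−1.94) and Prdx2 (−0.86) lie below 0 under all 5 scalings drawn.

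Among the 10 genes, likeness was measured as the Euclidean distance between log2(CPM + 0.5) profiles centred on their mean over the 4 libraries, on which 0 is an identical profile. Cat was nearest to Gpx1 (0.38), Prdx3 to Prdx5 (0.35) and Prdx1 to Sod1 (0.38), and Prdx2 lay nearest to Gpx4 (0.59). Over 7166 other genes, the profile of Cat, the lowest of the 10, was closest to Slc16a10 (0.078), Rc3h2 (0.14) and Oxsr1 (0.24), and that of Prdx6, the highest, to Pcsk6 (0.091), Ctdspl2 (0.096) and Rpn1 (0.15). With 4 libraries many profiles are alike, and these distances describe only that.

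The wider redox system was followed in 8 lists that held 109 matched genes, of which 97 were tested. edgeR called 0 lower and 0 higher. At an unadjusted p under 0.05, 10 were lower and 3 higher, against 3.05% and 5.35% of all genes. DESeq2 called 1 lower (Nfe2) and 3 higher (G6pdx, Nqo1 and Slc40a1), against 1.35% and 2.31% of all genes. Group ranges did not overlap for 27 genes lower and 17 higher in the Rif1_KO-labelled pair. Over all genes these shares were 18.4% and 21.0%. The same shares stand beside the counts of separate ranges in each list below, and nothing is read from those small counts. The median log2 fold change of the 97 was −0.24, beside −0.11 over all genes.

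Among enzymes that recycle the partners of the peroxidases, none was called. In the thioredoxin list (13 tested, median −0.19) ranges lay apart and lower for 4 and higher for 1, where they did for 18.4% and 21.0% of all genes. Txn1, the thioredoxin that recharges peroxiredoxins, was at 274 and 135 CPM in the WT-labelled pair and 205 and 158 in the Rif1_KO-labelled pair, which overlapped. Txnrd1, its cytosolic reductase, was at 55.2 and 74.7 against 33.2 and 47.6, and Txnrd2, the mitochondrial reductase, at 23.1 and 38.4 against 3.69 and 9.85. Both reductases had both Rif1_KO-labelled values below both WT-labelled values, and neither was called by edgeR (adjusted p = 0.809 and 0.655). Srxn1, sulfiredoxin, which rescues over-oxidised peroxiredoxins, was at 14.0 and 0.752 against 4.82 and 7.79, a spread within the WT-labelled pair wider than the difference between groups. Sesn2, a stress-induced sestrin, was at 11.6 and 1.40 against 0.603 and 0.212. Prdx4, the peroxiredoxin of the endoplasmic reticulum and one of 5 tested relatives outside the 10 genes, was at 167 and 42.5 against 73.0 and 95.2, and Gpx8 of the same compartment at 166 and 224 against 199 and 120. All 5 relatives overlapped between the groups.

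In the glutathione list (22 tested, median −0.54), 7 genes lay apart and lower and 4 apart and higher, where 18.4% and 21.0% of all genes did. Gsr, glutathione reductase, was at 42.7 and 66.8 CPM in the WT-labelled pair and at 21.2 and 28.0 in the Rif1_KO-labelled pair, separate ranges with a log2 fold change of −1.15 (edgeR adjusted p = 0.710). Mgst3, a microsomal glutathione transferase with peroxidase activity, was at 169 and 247 against 71.0 and 64.2, and Glrx5, a mitochondrial glutaredoxin needed for iron-sulfur clusters and haem synthesis, at 154 and 157 against 58.6 and 29.5. Neither was called (edgeR adjusted p = 0.571 for each).

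In the NADPH supply list (10 tested, median −0.17) ranges lay apart and lower for 2 genes and higher for 1 (18.4% and 21.0% of all genes). Taldo1, transaldolase of the pentose phosphate pathway, had both Rif1_KO-labelled values below both WT-labelled ones, at 165 and 171 CPM against 56.3 and 71.1. G6pdx, glucose-6-phosphate dehydrogenase, the entry enzyme of the same pathway, had 5 and 5 counts in the WT-labelled pair and 297 and 307 in the Rif1_KO-labelled pair. Its log2 fold change was 5.25 (SE 1.48), called by DESeq2 (adjusted p = 0.000366) and not by edgeR (adjusted p = 0.571).

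Genes of the NRF2 pathway, the main transcriptional response to oxidants, went both ways (12 tested, median −0.70). Ranges lay apart for 3 lower and 3 higher, beside 18.4% and 21.0% of all genes. Nfe2l2, which encodes NRF2, was at 67.6 and 21.7 CPM against 59.2 and 29.2, and Keap1, its repressor, at 27.2 and 3.44 against 6.40 and 13.9, both overlapping. Among its known targets, Nqo1 was at 0.737 and 2.04 CPM in the WT-labelled pair and 42.0 and 12.9 in the Rif1_KO-labelled pair (DESeq2 adjusted p = 0.0089, edgeR 0.571). Hmox1, haem oxygenase, was at 27.9 and 45.3 against 5.12 and 11.2, and Osgin1 at 7.37 and 2.69 against 0.678 and 0.318, both with separate ranges. Nfe2, the erythroid relative of NRF2, had 94.1 CPM in WT replicate 2 and 0.678 to 2.28 in the other 3 libraries.

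Of the 8 lists, that of iron, haem breakdown and lipid peroxide control had the lowest median (11 tested, −1.0). In it 7 genes lay apart and lower. They were the iron storage or transport genes Fth1, Ftl1 and Tfrc, and Blvra, Blvrb, Dhodh and Lpcat3, which are neither. The 1 gene apart and higher was Slc40a1. Over all genes 18.4% lay apart and lower and 21.0% apart and higher. Fth1 and Ftl1, the ferritin chains that store iron, were at 2499 and 1688 CPM against 894 and 850, and at 4855 and 3600 against 1857 and 2127. For both chains the Rif1_KO-labelled values were below both WT-labelled values (log2 fold changes −1.26 and −1.09, edgeR adjusted p = 0.571 for each). Slc40a1, the iron exporter ferroportin, went the other way, with 4 and 13 counts against 452 and 127. The summed red cell markers given above separate the groups in the same direction as Glrx5, Hmox1 and the ferritins, and their part in these levels was not tested.

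Selenoprotein genes, whose shared machinery GPX1 and GPX4 need, centred near all genes (19 tested, median −0.08). Ranges lay apart for 2 lower and 6 higher, beside 18.4% and 21.0% of all genes. Secisbp2, which recruits the selenocysteine machinery to the TGA codon shown above, was at 1.57 and 0.967 CPM in the WT-labelled pair and at 10.9 and 3.81 in the Rif1_KO-labelled pair (edgeR adjusted p = 0.669). Selenoi was at 77.5 and 1.40 against 5.80 and 1.11, with WT replicate 2 between the Rif1_KO-labelled values. Of the 5 tested sources of superoxide and peroxide (median −0.09), Nox4, an oxidase that makes hydrogen peroxide, was at 3.13 and 0.967 against 12.7 and 5.88.

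**Figure D4:**
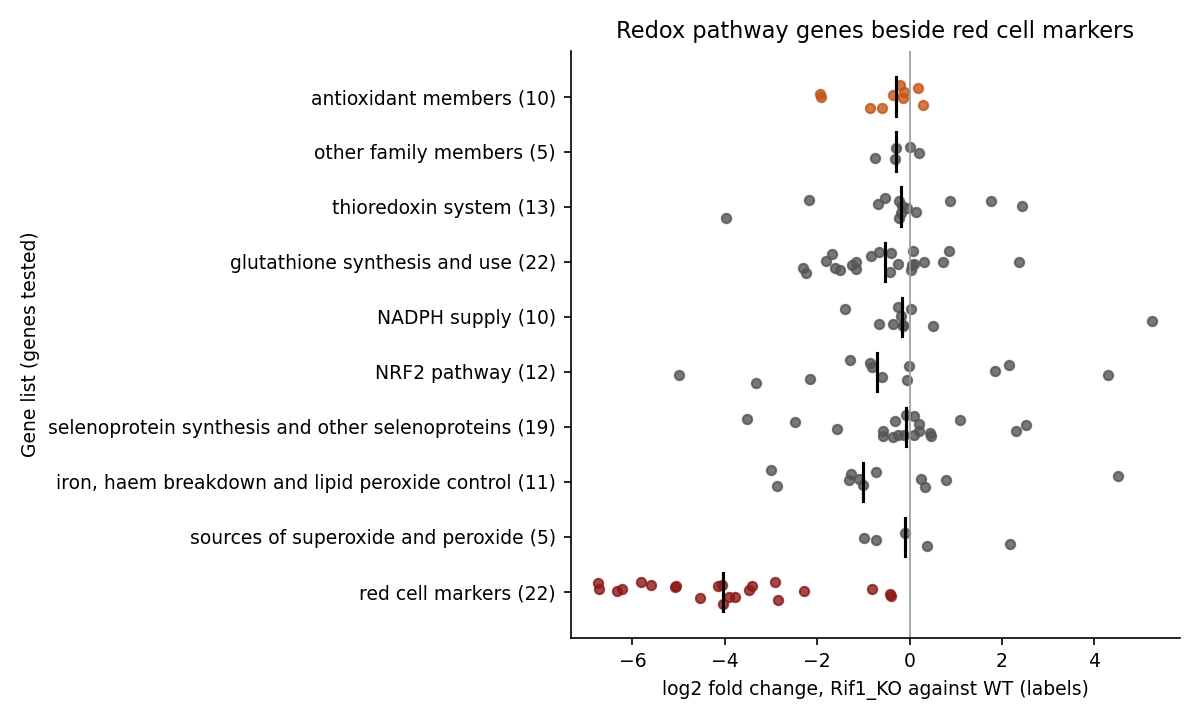
Fitted log2 fold change (Rif1_KO-labelled against WT-labelled) of each tested gene in the 10 antioxidant genes, the 8 pathway lists and the red cell markers, with a bar at each list's median. Medians of the pathway lists lie between −1.0 and −0.08, and that of the red cell markers at −4.04.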

How the data were processed

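The deposited table holds whole-number counts per gene for 4 libraries, with gene positions on mm10 and merged exon lengths. Per the submitters' processing notes the authors counted with featureCounts 1.6.2 on GENCODE M17. For read mapping, the aligner is not given in the sources used. Levels are CPM on TMM-scaled totals. Genes that passed filterByExpr (minimum count 10) were fitted with edgeR 4.0.16 (quasi-likelihood, robust, Benjamini-Hochberg threshold 0.05) in R 4.3.3 on both groups with no covariate; fold changes are Rif1_KO-labelled over WT-labelled. The fit was tested on simulated data. DESeq2 1.42.0, limma 3.58.1 (voom), other scalings and filters, a replicate block and each library left out were the alternatives. Replicate numbers do not pair the libraries, as the labels tie them to nothing. Libraries of a group differed by more than sampling noise (chi-square per degree of freedom 50.8 and 43.6), so neither pair is 1 library deposited again; this does not show separate embryos. Of 215 entries in the gene lists, 3 had no match in the table (Ero1a, Ero1b and Ahsp).

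The members and lists were chosen with earlier results of these data known. Besides the members, the text names 10 pathway genes in every case (Txn1, Txnrd1, Gsr, G6pdx, Srxn1, Prdx4, Nfe2l2, Keap1, Hmox1 and Nqo1), and from each pathway list up to 2 genes with the smallest p. Of these, 1 gene is not reported here. Nfe2 and Slc40a1 are named because DESeq2 called them, chosen after their values were seen. Tfrc, Blvra, Blvrb, Dhodh and Lpcat3 are named because their ranges lay apart in the iron list, also after their values were seen. Shared transcript sequence was counted in 50-base windows of GENCODE M21 transcripts.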

Additional observations from a re-analysis of the deposited data

How the results depend on the processing

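Counts of called genes depended on the tool and on single libraries. Genes called lower in the Rif1_KO-labelled pair were 2 by edgeR with TMM, 0 with upper-quartile factors, 0 with at least 5 CPM required, 36 with no filter on low counts and 192 by DESeq2. They were 0 with haemoglobin, mitochondrial and rRNA-region genes left out, which removes both called genes by construction. Genes called higher were 0 in the main test, 18 with no filter and 329 by DESeq2. Of the redox pathway genes, DESeq2 called 1 lower and 3 higher, where edgeR called 0 and 0. With each library left out in turn, genes called lower numbered 5 to 653 and higher 0 to 692, and pathway genes 0 to 6 lower and 0 to 6 higher, the large counts arising without WT replicate 1 (653 and 692) or WT replicate 2 (467 and 423); the lone library of a group is then assumed to vary like the other group's pair. Of the 10 antioxidant genes, only Gpx1 was called with no filter, where 36 of all 45215 genes tested were called lower and 18 higher. Without WT replicate 1 the log2 fold changes of Gpx1 and Cat were −2.03 and −2.25. Without WT replicate 2 they were −1.74 and −1.47. With a replicate block, 7 genes were lower; the replicate numbers are only shared, and same-numbered libraries did not deviate together (correlation −0.024). In the 13 settings run, Gpx1, Gpx4, Prdx1, Prdx2 and Cat kept their sign, and Prdx3 (4 settings), Sod1 (5), Sod2 (5), Prdx5 (1) and Prdx6 (1) did not. The cause of these differences was not tested.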
